A study of Mus musculus with 18 samples.

Results

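The formyl peptide receptors are the mouse genes Fpr1, Fpr2 and Fpr3. They were taken by symbol, as 3 of the 22852 gene symbols listed for every library, and are described across the 6 groups of 3 libraries. They had been chosen by their measured levels across the LPS groups. All 3 passed the filter on low counts, Fpr3 only through 3 libraries. Mouse bone marrow-derived macrophages (BMDMs) of strain C57BL/6, grown for 7 days with 20% L929 cell conditioned medium as the source of macrophage growth factor, were left unstimulated, primed with lipopolysaccharide (LPS) at 100 ng/ml for 24 h (primed), or primed and then given fresh medium with LPS at 10 ng/ml for 3 h (tolerant). Both of the last states were also made after 1 h of pretreatment with 25 µM carboplatin, a platinum drug that damages DNA (primed with carboplatin, tolerant with carboplatin). A further group received a single dose of LPS at 10 ng/ml (single LPS). The time of that dose is not given for the RNA libraries in the sources used here, so single LPS and primed BMDMs differ in dose and may differ in time. Tolerant BMDMs differ from primed ones in the added LPS, the fresh medium and the further 3 h together. This contrast is called the second dose below, and these parts of it cannot be told apart.

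Formyl peptide receptors are G protein-coupled receptors of phagocytes. They bind N-formylated peptides, which bacteria and mitochondria make because both start proteins with formylmethionine, and they act through Gi proteins, phosphoinositide 3-kinase gamma and Rac to drive chemotaxis, degranulation and the NADPH oxidase burst. Mouse Fpr1 is the receptor with high affinity for short bacterial formyl peptides, while Fpr2 also takes longer peptides and endogenous ligands such as serum amyloid A and annexin A1. Fpr3 is a close relative of Fpr2. LPS tolerance is the state in which a second dose of LPS gives a repressed cytokine response.

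The 3 genes lie side by side on chromosome 17 of GRCm39. Fpr1 (chr17:18096733-18104202) is on the minus strand and Fpr2 (chr17:18108070-18114215) on the plus strand, so that they are read away from each other, with starts 3868 bases apart. Fpr3 (chr17:18108070-18191939) is on the plus strand, and in GENCODE release M39 its canonical transcript uses the same first exon of 92 bases as Fpr2. Its own second exon begins 76.5 kb beyond the end of Fpr2. In each gene the whole coding sequence lies in exon 2, and exon 1 is 5′ untranslated. The coding sequences hold 364, 351 and 351 codons for Fpr1, Fpr2 and Fpr3. Fpr2 and Fpr3 were identical at 88.4% of aligned bases, against 68.4% for Fpr1 and Fpr2 and 68.5% for Fpr1 and Fpr3.

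The longest run of bases shared exactly by the coding sequences of Fpr2 and Fpr3 is shown because reads that lie wholly within it could come from either gene. It is 94 bases long, shorter than the reads of 150 bases used here, and starts at base 217 of both coding sequences.

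Fpr2 and Fpr3 shared run: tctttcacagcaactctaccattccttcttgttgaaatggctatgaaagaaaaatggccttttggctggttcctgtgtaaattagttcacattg

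Of the 150-base windows of the Fpr2 transcript, 1.37% also occurred in another annotated gene, the pseudogene Gm5966, and none of those of Fpr1 or Fpr3 did. Reads were sequenced as pairs of 150 bases. At 50 bases the shared windows came to 35.8% for Fpr2 and 10.5% for Fpr3. The shared first exon, of 92 bases, is shorter than such a read, and reads that reach it overlap both Fpr2 and Fpr3. How the counting treated them is not given in the sources used here. The level of Fpr2 and its ratio to Fpr1 may depend on that, which was not tested.

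The 300 bases before the starts of Fpr1 and Fpr2 are shown because these 2 genes carry the differences between groups described here. Letters in capitals mark a match to the GAS motif, TTCNNNGAA, the element bound by STAT factors. The Fpr1 window is chr17:18104203-18104502, printed from the minus strand, and the Fpr2 window, which is also that of the canonical Fpr3 transcript, is chr17:18107770-18108069 on the plus strand.

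Fpr1: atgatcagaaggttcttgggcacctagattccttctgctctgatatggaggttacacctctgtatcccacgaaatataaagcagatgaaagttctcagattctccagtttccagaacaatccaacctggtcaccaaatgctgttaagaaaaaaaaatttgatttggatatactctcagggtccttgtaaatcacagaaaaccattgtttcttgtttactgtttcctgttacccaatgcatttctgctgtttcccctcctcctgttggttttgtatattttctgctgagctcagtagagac

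Fpr2: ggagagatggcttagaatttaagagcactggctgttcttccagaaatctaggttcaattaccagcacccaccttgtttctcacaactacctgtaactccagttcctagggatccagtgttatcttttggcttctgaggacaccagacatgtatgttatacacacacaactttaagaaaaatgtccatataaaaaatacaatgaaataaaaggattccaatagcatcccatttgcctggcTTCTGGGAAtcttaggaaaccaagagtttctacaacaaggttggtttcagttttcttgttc

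Both strands were searched for 6 motifs: NF-κB (GGGNNTTTC), AP-1 (TGANTCA), C/EBP (TTGCNNAA), PU.1 (GAGGAAGT), ISRE (GAAANNGAA) and GAS. The Fpr2 window held 1 GAS match, TTCTGGGAA, at position -61, and no other match. None of the 6 motifs was found in the Fpr1 window. Among 21769 promoters of the same length, GAS occurred in 9.2%, NF-κB in 4.57%, AP-1 in 7.38%, C/EBP in 11.4%, PU.1 in 2.43% and ISRE in 9.29%.

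Between 6869667 and 14708099 counts per library fell on genes (median 8986463). All 7 macrophage markers examined, among them Csf1r, Adgre1 and Lyz2, were counted in every library. Because formyl peptide receptors are abundant in neutrophils, 11 neutrophil markers were read as well. Ly6g, Retnlg, Mpo and Cxcr2 had no count in any of the 18 libraries, and Elane, Ltf and Ngp had at most 3. S100a9 reached 8 counts. The remaining markers moved with LPS: mean normalized counts of Mmp8 were 47.0 in unstimulated and 809 in primed BMDMs, those of S100a8 were 10.1 and 238, and those of Csf3r 501 and 1653. The summed level of the neutrophil list was 442 to 756 in unstimulated BMDMs, 761 to 1132 with single LPS, and 1455 to 4093 in the 4 primed or tolerant groups. B cell markers summed to 267 to 1560 in unstimulated BMDMs, 71.6 to 271 with single LPS and at most 12.7 elsewhere. The part of the B cell markers, and of Mmp8, S100a8 and Csf3r, in the results was not tested. In such bulk samples more RNA per cell and more cells of a type cannot be told apart.

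Fpr1 went from near the floor of detection to one of the most abundant transcripts. Normalized counts are counts scaled to a common effective library size. They were 24.9, 10.7 and 9.09 for Fpr1 in unstimulated replicates 1, 2 and 3, from 26, 13 and 10 deposited counts. Single LPS gave 94.3, 51.9 and 109. All 3 libraries lay above all unstimulated ones, as did those of 26% of tested genes.

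In primed BMDMs the normalized counts of Fpr1 were 5678, 3438 and 4872, and in tolerant BMDMs 7176, 3738 and 6801. With carboplatin they were 6678, 4367 and 5572 in primed and 6738, 4861 and 7336 in tolerant BMDMs. Replicate 2 was the lowest of the 3 libraries in each of these 4 groups and in single LPS.

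Fpr2 followed the same course with a different middle step. Its normalized counts were 10.5, 9.84 and 6.36 in unstimulated BMDMs, from 11, 12 and 7 deposited counts, and 169, 122 and 179 with single LPS. Primed BMDMs had 3782, 3134 and 4401, and tolerant BMDMs 3467, 2971 and 4021. The groups with carboplatin had 2967, 2684 and 3295 when primed and 2486, 2838 and 3073 when tolerant. The 4 primed or tolerant groups overlapped one another for Fpr1. For Fpr2 all pairs of these groups overlapped except primed and tolerant with carboplatin, where primed lay higher, as did 15.8% of tested genes. For both genes each of the 4 groups lay above single LPS without overlap, which held for 25.8% of tested genes in primed, 21.1% in tolerant, 25.1% in primed with carboplatin and 21.6% in tolerant with carboplatin BMDMs.

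**Figure D1:**
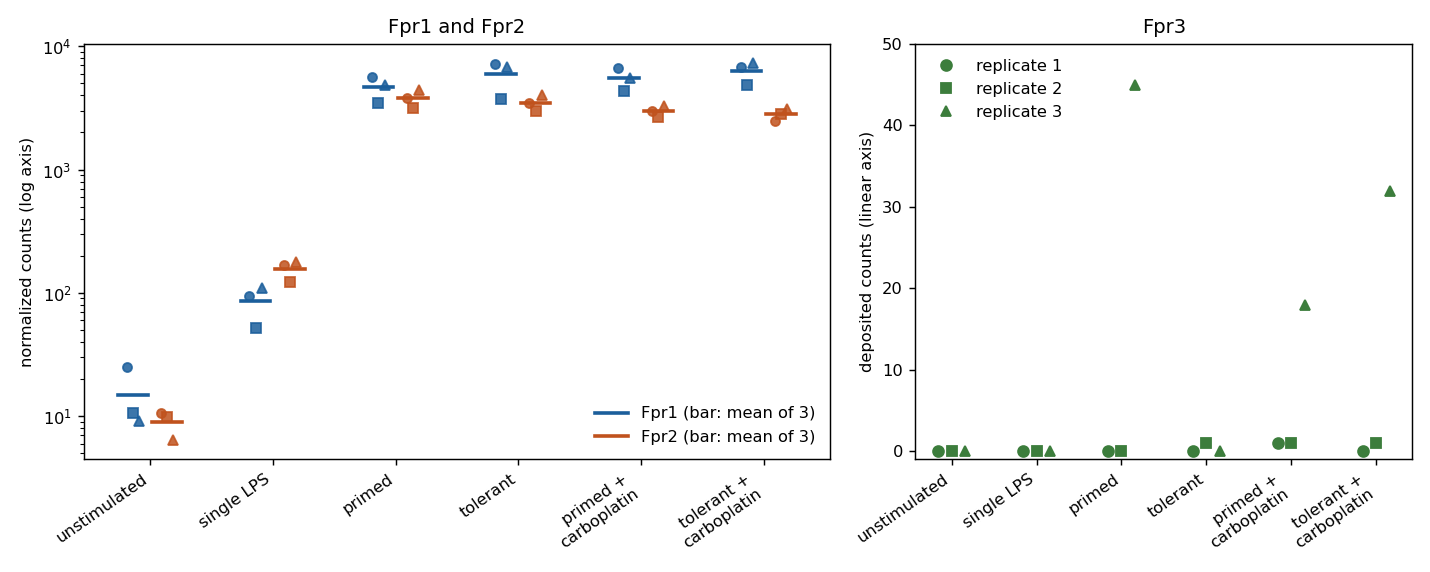
Left, normalized counts (log axis) of Fpr1 and Fpr2 in every library of the 6 groups, with replicates 1, 2 and 3 as circles, squares and triangles and a bar at the mean of 3. Right, deposited counts of Fpr3 (linear axis), where 3 libraries, all replicate 3, hold 18, 32 and 45 counts and the other 15 hold 0 or 1.

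Ordered by group mean, Fpr1 ran from unstimulated (14.9 ± 8.68, SD, n = 3) through single LPS (85.2 ± 29.8), primed (4663 ± 1134), primed with carboplatin (5539 ± 1156) and tolerant (5905 ± 1886) to tolerant with carboplatin (6312 ± 1292). For Fpr2 the order was unstimulated (8.90 ± 2.23), single LPS (157 ± 30.8), tolerant with carboplatin (2799 ± 295), primed with carboplatin (2982 ± 306), tolerant (3486 ± 525) and primed (3772 ± 633). The steps from the first to the second and from the second to the third group did not overlap, and the last 4 groups overlapped their neighbours. Among those 4, primed was the lowest mean for Fpr1 and the highest for Fpr2, and tolerant with carboplatin the reverse, but neighbours did not differ beyond their spread.

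The LPS contrasts are a description, because the response of these genes to LPS was known when they were chosen. Priming came with a log2FC of 8.30 (SE 0.45) for Fpr1 and 8.71 (SE 0.26) for Fpr2, or 315-fold and 418-fold. These ranked 20 and 14 from the top among 11305 genes tested. Non-overlapping groups with a higher level after priming were found for 18.1% of tested genes. Single LPS came with a log2FC of 2.51 (SE 0.41) for Fpr1 and 4.11 (SE 0.24) for Fpr2, where 26% of tested genes were higher without overlap. Between tolerant and single LPS BMDMs, which ended with the same dose of LPS, the log2FC was 6.13 (SE 0.39) for Fpr1 and 4.48 (SE 0.20) for Fpr2, against 21.1% of tested genes higher without overlap.

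Per kb of exon, which allows a comparison between genes, Fpr1 stood at 11.2 ± 6.56 and Fpr2 at 6.78 ± 1.70 normalized counts in unstimulated BMDMs. In primed BMDMs they stood at 3522 ± 857 and 2873 ± 482, which placed them 71st and 81st of 11002 tested genes with a known length. With single LPS the order of the 2 genes was turned, with 64.3 ± 22.5 for Fpr1 and 119 ± 23.5 for Fpr2.

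The ratio of Fpr1 to Fpr2 counts within a library does not depend on the scaling between libraries. It was 2.36, 1.08 and 1.43 in unstimulated replicates 1, 2 and 3 and 0.556, 0.426 and 0.610 with single LPS, the only group below 1. Primed BMDMs had ratios of 1.50, 1.10 and 1.11, and tolerant BMDMs 2.07, 1.26 and 1.69. With carboplatin the ratios were 2.25, 1.63 and 1.69 in primed and 2.71, 1.71 and 2.39 in tolerant BMDMs.

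The ratio was higher with carboplatin in every same-numbered pair. The log2 differences were 0.58, 0.57 and 0.61 in primed BMDMs, where the ratios with and without the drug did not overlap, and 0.39, 0.44 and 0.50 in tolerant BMDMs, where they did. As a mean, the ratio was 1.50-fold higher in primed and 1.36-fold higher in tolerant BMDMs. The second dose also came with a higher ratio in every pair, by 0.46, 0.20 and 0.61 on the log2 scale without carboplatin and by 0.27, 0.07 and 0.50 with it. The ratio is a score over genes chosen with results known and is given with no test. How often the ratio of other gene pairs separates in this way was not computed.

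**Figure D2:**
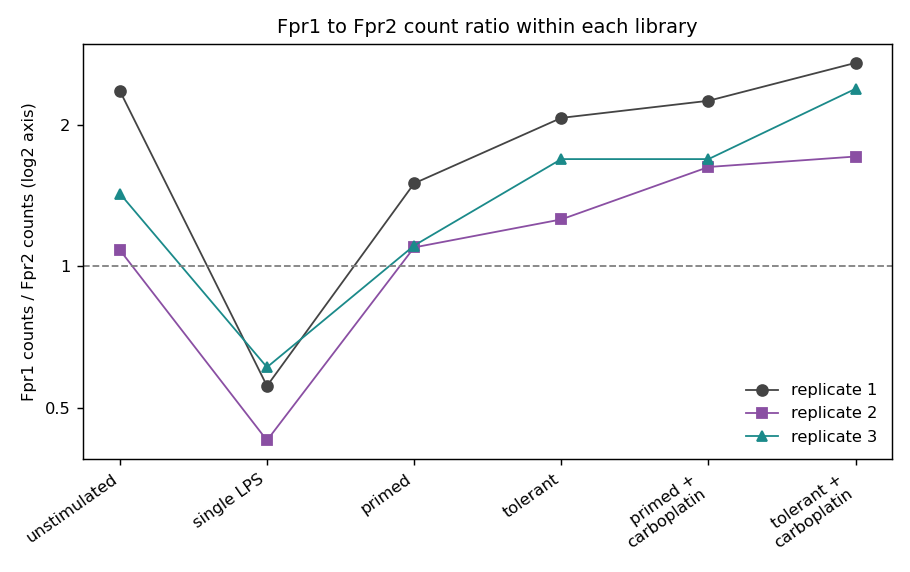
Ratio of Fpr1 to Fpr2 counts (log2 axis) in each of the 18 libraries, with lines joining libraries that carry the same replicate number and a dashed line at 1. The 3 single LPS libraries lie below 1, and the 6 libraries with carboplatin, between 1.63 and 2.71, each lie above the same-numbered library without it.

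To ask whether carboplatin changed the receptors, each state was compared with and without the drug. In primed BMDMs the log2FC was 0.25 (SE 0.31, edgeR adjusted p = 0.983) for Fpr1, higher in 3 of 3 pairs, and -0.34 (SE 0.17, edgeR adjusted p = 0.761) for Fpr2, lower in 3 of 3 pairs. Neither passed the threshold, and 0.372% of tested genes did, all of them lower with carboplatin. The 95% interval of the fold ran from 0.760 to 1.86 for Fpr1 and from 0.614 to 1.02 for Fpr2, in this fit, which does not pair the libraries. With the replicate number as a block, which pairs them, the log2FC was 0.26 (SE 0.14, edgeR adjusted p = 0.451) for Fpr1. For Fpr2 it was -0.33 (SE 0.12, edgeR adjusted p = 0.196). The block called 200 of 11305 tested genes.

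In tolerant BMDMs the log2FC was 0.10 (SE 0.30, edgeR adjusted p = 1.00) for Fpr1, higher in 2 of 3 pairs, and -0.32 (SE 0.17, edgeR adjusted p = 0.843) for Fpr2, lower in 3 of 3 pairs. Here 0.425% of tested genes were called. The intervals ran from 0.685 to 1.67 for Fpr1 and from 0.624 to 1.03 for Fpr2. The difference between the 2 carboplatin effects was -0.15 (SE 0.43) for Fpr1 and 0.02 (SE 0.24) for Fpr2, with an edgeR adjusted p of 1.00 for both, and 0% of tested genes were called there (131 at an unadjusted p under 0.05 and 0 by DESeq2). For carboplatin in tolerant BMDMs, the block gave a log2FC of 0.13 (SE 0.14, edgeR adjusted p = 0.785) for Fpr1. It gave -0.30 (SE 0.12, edgeR adjusted p = 0.263) for Fpr2, and called 200 of 11305 tested genes.

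Since Fpr2 was lower in all 6 pairs, the carboplatin effect was also averaged over both states, a comparison chosen after these values were seen. The 6 pairs are the same replicate numbers seen in both states and are not independent of one another. The share of tested genes that moved the same way in every pair was not computed. The log2FC of Fpr2 was -0.33 (SE 0.12), or 0.797-fold with a 95% interval from 0.666 to 0.952, at an edgeR adjusted p of 0.257. With the replicate number as a block it was -0.32 (SE 0.08) at an edgeR adjusted p of 0.0284, so that passing the threshold rests on the pairing. The values that prompted this comparison are those it tests, so its p-values and interval are no independent support. The averaged log2FC of Fpr1 was 0.17 (SE 0.22, edgeR adjusted p = 0.846). The share of tested genes called was 1.99% without the block and 6.24% with it.

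For the second dose of LPS, tolerant against primed BMDMs, neither receptor was called with or without the replicate number as a block. Without the block the log2FC was 0.34 (SE 0.31, edgeR adjusted p = 0.583) for Fpr1, higher in 3 of 3 pairs, and -0.11 (SE 0.17, edgeR adjusted p = 0.769) for Fpr2, lower in 3 of 3 pairs, while 6.31% of tested genes were called. With the block it was 0.32 (SE 0.14, edgeR adjusted p = 0.139) for Fpr1 and -0.11 (SE 0.12, edgeR adjusted p = 0.551) for Fpr2. The block called 18% of tested genes. With carboplatin in both groups and no block the log2FC was 0.19 (SE 0.30, edgeR adjusted p = 0.857) for Fpr1 and -0.09 (SE 0.17, edgeR adjusted p = 0.879) for Fpr2, beside 1.98% of tested genes.

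**Figure D3:**
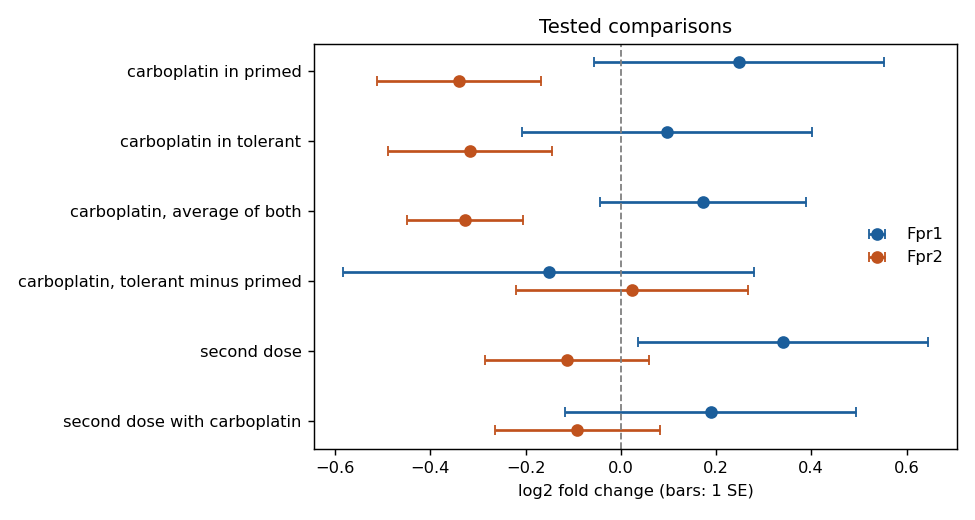
Log2 fold change of Fpr1 and Fpr2 (horizontal axis, bars of 1 SE) in the carboplatin and second dose comparisons, with a dashed line at 0. In the carboplatin rows of primed, tolerant and their average, Fpr1 lies at 0.10 to 0.25 and Fpr2 at -0.34 to -0.32.

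Fpr3 was counted in few libraries. Its deposited counts were 0 in all unstimulated and single LPS libraries, where a count of 0 allows up to 3 counts. In replicates 1, 2 and 3 they were 0, 0 and 45 in primed BMDMs, 0, 1 and 0 in tolerant BMDMs, 1, 1 and 18 in primed BMDMs with carboplatin, and 0, 1 and 32 in tolerant BMDMs with carboplatin. The 3 libraries above 1 count were all replicate 3, although replicate 3 of the tolerant group had none. In those 3 libraries Fpr3 came to 0.959%, 0.550% and 0.957% of the Fpr2 counts.

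Fpr3 passed the filter on low counts only through these 3 libraries. It was not called in any of the comparisons tested (edgeR adjusted p of 0.989 and 0.831 for carboplatin in primed and tolerant BMDMs, 1.00 for their difference, 0.242 for the second dose and 0.915 for the second dose with carboplatin). With the replicate block the second dose was called at an edgeR adjusted p of 0.0332, as were 18% of tested genes, but that direction rests on 1 library: without primed replicate 3 the fitted log2FC went from -4.98 to 1.89 in the fit without the block. The other Fpr rows of the files, Fpr-rs3, Fpr-rs4, Fpr-rs6 and Fpr-rs7, had no count in any library.

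The genes most like each receptor were ranked by Pearson correlation of log2 normalized counts over the 18 libraries, among the other 11304 tested genes. All points share libraries and the same 6 groups, so r mostly follows the step between groups. For Fpr1 the leading genes were Tpi1 (r = 0.992), Pgk1 (0.992), Fam162a (0.990), Eno1 (0.988) and Saa3 (0.988). Tpi1, Pgk1 and Eno1 encode glycolytic enzymes. For Fpr2 they were Saa3 (0.996), C1ra (0.990), Adgb (0.990), Cfb (0.989) and Lcn2 (0.988), where C1ra and Cfb encode complement proteases and Lcn2 the siderophore-binding lipocalin 2. Fpr2 ranked 15th for Fpr1 and Fpr1 ranked 9th for Fpr2 (r = 0.982).

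The steps differed in size. Tpi1 went from 2708 ± 805 normalized counts in unstimulated to 14367 ± 1290 in primed BMDMs, and Lcn2 from 12.3 ± 8.25 to 3626 ± 1022. After the group means were removed, r with Fpr1 was 0.849 for Tpi1, 0.648 for Pgk1, 0.840 for Fam162a, 0.909 for Eno1 and 0.472 for Saa3. With Fpr2 it was 0.336 for Saa3, 0.756 for C1ra, 0.603 for Adgb, 0.094 for Cfb and 0.814 for Lcn2. Between Fpr1 and Fpr2 it was 0.739. Same-numbered libraries share offsets that enter these values, and r of this kind was not computed over all tested genes. For Fpr3, whose counts are sparse, the highest r was 0.742 for Kif3c, followed by Ubxn7 (0.699), Tmem170b (0.694), Nlrc4 (0.687) and Nsd1 (0.675), which is weak and no finding.

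**Figure D4:**
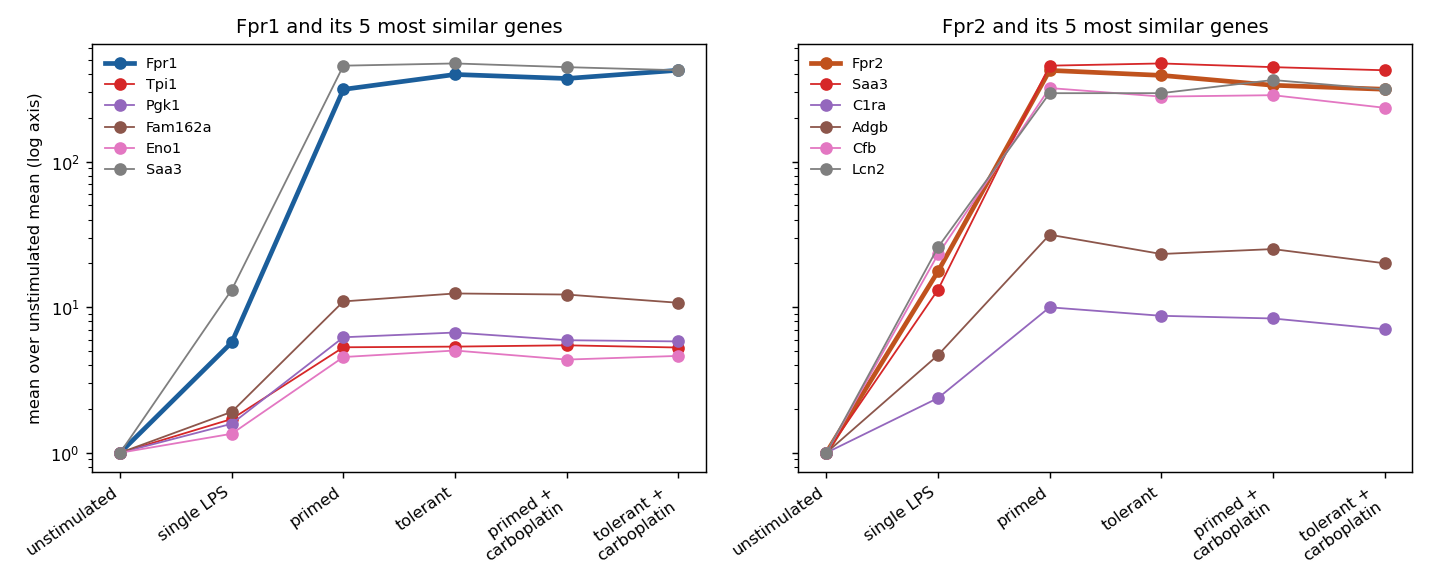
Group means over the unstimulated mean (log axis) for Fpr1 (left) and Fpr2 (right), each with its 5 most similar genes. The genes share the step between single LPS and primed BMDMs, and Tpi1, Pgk1 and Eno1 rise far less than Fpr1.

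Ligands of the receptors were taken as a list of 10 genes, 8 of which could be tested. This list and the other gene lists below were chosen with earlier results of these data known. Their calls in the LPS contrasts are therefore a description and no independent support. With priming 5 rose and 1 fell, with single LPS 5 rose and 1 fell, and the shares of all genes called were 25.2% and 51.2%. The median log2FC of the list was 1.59 with priming, against -0.02 over all tested genes. Saa3, an acute-phase serum amyloid A made by macrophages, rose by 8.83 (SE 0.27) with priming and by 3.72 (SE 0.21) with single LPS. Saa1 was at 0 counts in unstimulated BMDMs and reached mean normalized counts of 39.9 with single LPS and 113 with priming. Saa2 was also at 0 there, and reached 1.02 and 10.3. Anxa1, which encodes annexin A1, fell by 1.39 (SE 0.15) with priming and rose by 0.71 (SE 0.15) with single LPS.

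App, the precursor of an amyloid peptide that binds Fpr2, rose by 1.26 (SE 0.12) with priming. Plaur, the urokinase receptor from which a chemotactic fragment is cut, rose by 5.06 (SE 0.50) with single LPS, by 1.91 (SE 0.44) with priming and by a further 2.24 (SE 0.44, edgeR adjusted p = 0.00542) with the second dose. It was the only one of the 8 ligand genes called for the second dose, beside 6.31% of all tested genes. Hebp1, the source of the peptide F2L, fell by 0.95 (SE 0.22) with single LPS, and Mtfmt, the mitochondrial enzyme that formylates methionine, was not called in either (log2FC -0.01 and -0.20). None of the 8 was called for carboplatin in primed or tolerant BMDMs by edgeR without the replicate block (1 at an unadjusted p under 0.05 in each, and 0 and 1 by DESeq2). With the block 0 and 1 were called, beside 200 of 11305 tested genes in each state. For carboplatin averaged over both states, 1 of the 8 was called, as lower, beside 1.99% of all tested genes. There the block called 1 higher and 2 lower, beside 6.24% of all tested genes.

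Other chemoattractant receptors moved in both directions. Of 8 tested, 4 rose and 3 fell with priming, where 25.2% of all genes were called, and 3 rose and 1 fell with single LPS, a share near the 51.2% of all genes. Cmklr1, the chemerin receptor, rose by 3.85 (SE 0.47) with priming, and Ltb4r1, the leukotriene B4 receptor, by 4.53 (SE 0.61), and neither was called with single LPS (log2FC 0.58 and -1.13). Gpr84, a receptor for medium-chain fatty acids, rose by 7.84 (SE 0.33) with single LPS and by 4.84 (SE 0.29) with priming. C5ar1, the C5a receptor, rose by 1.24 (SE 0.20) with single LPS and by 0.81 (SE 0.20) with priming.

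Gpr183, a receptor for oxysterols, fell by 4.25 (SE 0.77) with priming. C5ar2, a C5a receptor that does not couple to G proteins, fell by 1.94 (SE 0.51), and C3ar1, the C3a receptor, fell by 0.72 (SE 0.22). Ptafr, the receptor for platelet-activating factor, rose by 1.51 (SE 0.25) with single LPS and had a log2FC of -0.55 (SE 0.25, edgeR adjusted p = 0.124) with priming. With the second dose, which came with fresh medium and a further 3 h, C5ar1 rose by 1.03 (SE 0.20, edgeR adjusted p = 0.00551) and Gpr84 by 1.34 (SE 0.24, edgeR adjusted p = 0.00263). These were the 2 called among the 8, beside 6.31% of all tested genes. The replicate block called 3 higher and 1 lower, beside 18% of all tested genes. Between tolerant and single LPS BMDMs, where 34.5% of all genes were called, 4 of the 8 were higher and 3 lower. Per kb of exon, C3ar1 was the most abundant of 12 such receptors in unstimulated BMDMs (2133 ± 157), Gpr84 with single LPS (3706 ± 555), and Fpr1 in the 4 primed or tolerant groups (3522 to 4767).

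**Figure D5:**
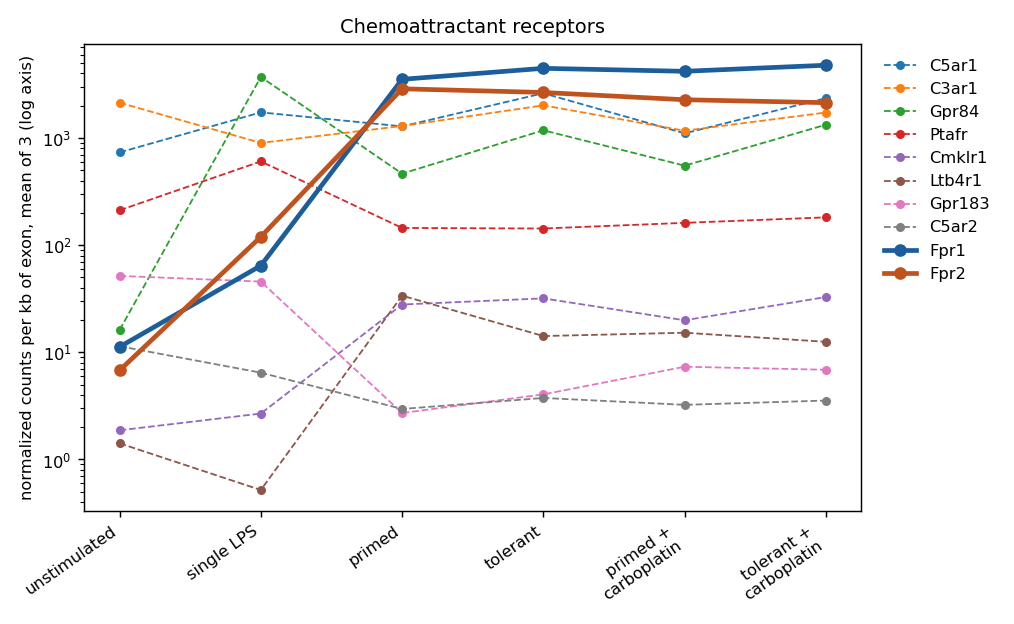
Mean normalized counts per kb of exon (log axis, n = 3) of Fpr1, Fpr2 and the 8 other chemoattractant receptors that passed the filter. Fpr1 moves from 7th of 12 receptors in unstimulated BMDMs to 1st in the primed and tolerant groups, and Gpr84 is highest with single LPS.

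Of 25 genes that carry the receptor signal, 6 rose and 2 fell with priming (32% called, against 25.2% of all genes), and 8 rose and 7 fell with single LPS (60%, against 51.2%), so that both shares were near those of all genes. With the replicate block 10 rose and 7 fell with priming, a larger share than the 4367 of 11305 tested genes called there. Fgr, a Src-family kinase, rose by 1.80 (SE 0.37) with priming, and Rac2, the haematopoietic Rac, rose by 0.68 (SE 0.22). Gnai2, a Gi subunit, was not called (log2FC -0.15 with priming and -0.18 with single LPS). With single LPS, Pik3cg, the catalytic subunit of phosphoinositide 3-kinase gamma, fell by 0.91 (SE 0.26), Plcb2, a phospholipase C, fell by 1.64 (SE 0.31) and Prex1, a Rac exchange factor, fell by 0.46 (SE 0.16). Cybb, the catalytic subunit of the NADPH oxidase, rose by 2.06 (SE 0.40) with priming. It was 1 of 2 called among 5 oxidase genes, beside 25.2% of all genes. The replicate block called 4 of the 5, beside 4367 of 11305 tested genes.

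With carboplatin 2 of the 25 were called in each state, beside 0.372% of all genes in primed and 0.425% in tolerant BMDMs. These were Dock2 and Elmo1, which form a Rac exchange complex and were named after their values were seen. DESeq2 called 2 and 3 of the 25 in primed and tolerant BMDMs, beside 123 and 153 genes in all. The replicate block called 4 and 3, beside 200 of 11305 tested genes in each state. Dock2 fell by 1.30 (SE 0.15, edgeR adjusted p = 0.000197) in primed and by 1.36 (SE 0.15, edgeR adjusted p = 0.000286) in tolerant BMDMs. Elmo1 fell by 1.42 (SE 0.20, edgeR adjusted p = 0.00136) and by 1.06 (SE 0.20, edgeR adjusted p = 0.0237). No oxidase gene was called for carboplatin by edgeR (0 of 5 at an unadjusted p under 0.05 and 0 by DESeq2).

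Genes that switch the receptors off fell mostly with single LPS. Of 12 desensitisation genes, 8 fell and 3 rose with single LPS (median log2FC -0.76, against -0.09 over all tested genes), and 2 fell and 1 rose with priming. All genes were called at 51.2% with single LPS and at 25.2% with priming, the latter near the 25% of this list. Arrb2, an arrestin, fell by 1.48 (SE 0.16) with single LPS and Grk2, a receptor kinase, fell by 0.68 (SE 0.12), and with priming they had a log2FC of 0.02 and -0.31. Rgs16, which speeds the shut-off of Gi, was at 0 counts in unstimulated BMDMs, at 111 mean normalized counts with single LPS and at 0.706 when primed. Rgs1 was not called in either (log2FC 0.52 and 0.53). None of the 12 was called for carboplatin in either state by edgeR (0 at an unadjusted p under 0.05 and 0 by DESeq2).

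Within 250 kb of the receptors, Spaca6 and Has1 were the only other genes that passed the filter. Spaca6, a sperm protein gene 33.5 kb from Fpr1 that hosts the microRNA genes Mir99b, Mirlet7e and Mir125a, rose by 2.17 (SE 0.49, edgeR adjusted p = 0.00294) with priming and by 1.42 (SE 0.48, edgeR adjusted p = 0.0208) with single LPS. The shares of all tested genes called there were 25.2% and 51.2%. Has1, a hyaluronan synthase gene 21.3 kb from Fpr1, had no count in unstimulated BMDMs, 20.4 ± 8.21 normalized counts with single LPS and 3.26 ± 3.18 when primed. Between tolerant and single LPS BMDMs neither was called. The log2FC was 0.71 (SE 0.46, edgeR adjusted p = 0.255) for Spaca6 and -1.66 (SE 0.94, edgeR adjusted p = 0.194) for Has1. Vmn2r90, a vomeronasal receptor gene, had at most 3 counts, and Vmn2r124, Vmn2r91, Vmn2r92 and Fpr-rs4 had none.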

How the data were processed

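RNA-Seq counts of 18 libraries, 3 replicates in each of 6 groups taken from the sample labels, were used as deposited. The authors prepared TruSeq stranded mRNA libraries, sequenced them on a HiSeq, used HISAT2 against GRCm39 for alignment, and obtained a count for each gene from HTSeq-count. The versions, the annotation and the strand setting are not given in the sources used here. The deposited counts are raw. Rows that name no gene held 41.5% to 46.9% of all counts and were left out.

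Groups were compared with edgeR 4.0.16 (quasi-likelihood F test, TMM, filterByExpr with a minimum count of 10, prior count 0.125) in R 4.3.3, in 1 fit of all 18 libraries with a mean for each group. A gene was called at a Benjamini-Hochberg adjusted p under 0.05 over 11305 genes, with no limit on the fold. Each SE was obtained from the log2FC and its F statistic. Replicates are biological, per the study's methods. Alternatives were DESeq2 1.42.0, other scalings, no filter, a prior count of 2, the limits of the study, each library left out, and a replicate block. The numbers were taken to pair the libraries. After group means were removed, same-numbered libraries correlated at over 0.1 in every pair of every comparison. Over the 45 pairs between all groups, 44 were over 0.1, the lowest was 0.063 and the mean 0.349. Differently numbered libraries were not correlated, and the labels do not say what libraries of the same number share. The edgeR fit without the block was run on simulated counts with known folds. Those libraries were drawn independently with no replicate effect, so the block was not tried there.

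Gene positions come from GENCODE release M39, matched by symbol for 20493 of 22852 symbols (89.7%), and sequences from the GRCm39 genome. The 3 receptors and the gene lists were chosen with earlier results of these data known. Named were the receptors, every Fpr row, all tested ligand and chemoattractant receptor genes, set genes of the other lists (1 of them is not reported here), the 5 genes most correlated with each receptor, and counted genes within 250 kb. Macrophage and neutrophil markers were read as a check of the labels, and B cell, T or NK cell, dendritic cell, mast cell, erythroid and stromal lists likewise. Markers of the last 5 summed to at most 13.1 normalized counts in any library.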

Additional observations from a re-analysis of the deposited data

How the results depend on the processing

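Of the settings that keep all libraries, 13 counts of called genes moved by over 1.5 times, 2 tested differences of the receptors became calls, and no receptor's log2FC turned. DESeq2 called 123 genes for carboplatin in primed and 153 in tolerant BMDMs, 424 for their average, 1116 for the second dose and 514 for the second dose with carboplatin, and none of the 3 receptors in any of these. Under the limits of the study (absolute log2FC over 2, adjusted p under 0.25), 80 genes were called for the second dose with carboplatin and 63 for averaged carboplatin. With the replicate number as a block, 200 genes were called for carboplatin in primed, 200 in tolerant, 705 for their average, 2034 for the second dose, 1040 with carboplatin and 4367 for priming. The block made Fpr2 a call for averaged carboplatin (log2FC -0.32) and Fpr3 for the second dose (log2FC -4.54), and changed no other call of the receptors. The averaged comparison was chosen after its values were seen, so that call is no independent support. The cause of these changes was not tested.

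With each library left out in turn, the genes called were 24 to 36 for carboplatin in primed BMDMs, 18 to 36 in tolerant, 129 to 250 for their average, 330 to 506 for the second dose and 75 to 160 with carboplatin. Fpr1 ranged from -0.15 to 0.26 for carboplatin in tolerant BMDMs, turning without tolerant replicate 2 or tolerant with carboplatin replicate 3, and from -0.39 to 0.026 for the difference between states. Fpr2 ranged from -0.10 to 0.14 for that difference and from -0.23 to 0.012 for the second dose, where it turned without primed replicate 3. Fpr3 ranged from -3.55 to 5.82 for carboplatin in primed, from -1.26 to 8.10 for the difference and from -6.85 to 1.89 for the second dose, each turning without primed replicate 3. It ranged from -3.28 to 3.13 for the second dose with carboplatin and from -0.19 to 5.19 for averaged carboplatin, turning without tolerant with carboplatin replicate 3. Fpr3's fitted folds also depend on the prior count, since the groups are near 0. With 7 to 26 deposited counts per library, the unstimulated levels of Fpr1 and Fpr2 are the least precise.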
